A study of Homo sapiens with 10 samples.

Results

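The genes described here are the expressed ZNF zinc finger genes of human BJ fibroblasts, followed in RNA-Seq and in Ribo-Seq while p53 was activated. A gene was taken if its symbol was ZNF with a number and at most 1 further letter, if it was listed in both tables of expression values, and if its mean over the 5 RNA-Seq libraries was at least 5 FPKM (fragments scaled to transcript length and library size). This gave 105 genes out of 408 ZNF genes listed in both tables, and out of 11258 transcripts of any kind listed in both. The members were thus selected on their RNA-Seq means, and the RNA levels below are a description. Unless another set is named, comparisons are with the 7916 genes in both tables that had a mean RNA of at least 5 FPKM. These include the members and are called all genes here.

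BJ cells are human foreskin fibroblasts, here immortalised with hTERT, the catalytic subunit of telomerase. They were left untreated or were given nutlin-3a, a small molecule that keeps the ubiquitin ligase MDM2 from binding p53, for 2, 4, 6 or 19 h. RNA-Seq on poly(A) RNA gave the level of each mRNA. Ribo-Seq, the sequencing of the mRNA fragments that ribosomes protect, gave its ribosome density. The paper's read statistics give the 6 and 19 h samples and their control a lower share of in-frame Ribo-Seq reads than the others listed. The part of this in the densities below was not tested. Each assay had 5 libraries, and each library was the single library of its condition, so replicate error is unknown and nothing was tested. The paper reports that its Ribo-Seq samples separated mainly by processing and sequencing batch. It states that for this reason the control of each condition was taken from its own batch. Its sample listing has the 6 and 19 h nutlin-3a samples with a control, but no 2 or 4 h sample. The labels used here name no run for any library, so a run effect could not be told apart from a change with time. All changes share the control library of their assay, so the changes at the 4 times are not independent of each other. RNA is pooled over the culture, and fewer cells with an mRNA cannot be told apart from less mRNA per cell.

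C2H2 zinc finger proteins bind DNA, and some of them RNA or protein, through repeated small folds that each hold a zinc ion between cysteines and histidines. The ZNF symbols are the largest group of such genes in the human genome and many of them lie in clusters on chromosome 19. Many proteins of this family carry a KRAB domain, which recruits TRIM28 (KAP1) and through it the histone methyltransferase SETDB1, HP1 proteins and the NuRD complex to silence chromatin, transposable elements above all. Others have no KRAB domain and act as promoter activators, RNA-binding proteins or ubiquitin ligases.

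As a check of the labels, CDKN1A, the p53 target that encodes the cell cycle inhibitor p21, rose in RNA from 68.6 FPKM in the control to 212, 915, 1204 and 1316 FPKM at 2, 4, 6 and 19 h. All 9 fibroblast markers were measured (COL1A2, for example, at 1632.7 to 3011 FPKM in RNA), whereas the epithelial marker CDH1 did not exceed 0.025 FPKM, the endothelial marker VWF 0.156 FPKM and the blood markers PTPRC and CD14 0.246 and 0.509 FPKM. EPCAM, KRT5, KRT14, PECAM1, CDH5 and CD3E had no row in either table used here. The recovered totals (whole reads, worked out from the steps between FPKM values) were 23845554 to 27554282 reads per RNA-Seq library and 7744897 to 14460725 reads per Ribo-Seq library, the lowest at 19 h. The median member had 629 to 759 reads in an RNA-Seq library but 99 to 244 in a Ribo-Seq library, so that the counting error of a median member's log2 change was 0.08 for RNA and 0.15 to 0.18 for ribosome density.

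The members were lowly expressed mRNAs. Their mean RNA ran from 5.07 to 27.3 FPKM with a median of 7.98 FPKM. In the control the median member had 7.81 FPKM of RNA and 3.75 FPKM of ribosome density, against 17.5 and 13.0 FPKM for all genes. The 5 highest were ZNF358 with a mean of 27.3 FPKM, ZNF146 with 23.6, ZNF622 with 22.4, ZNF664 with 20.6 and ZNF703 with 20.3 FPKM. Just inside the limit lay ZNF226, ZNF576 and ZNF212 with means of 5.07, 5.09 and 5.15 FPKM, and just outside it ZNF436, ZNF498 and ZNF507 with 4.99, 4.98 and 4.98 FPKM. The mean runs over treated libraries too, and 8 members were below 5 FPKM in the control itself. By RefSeq (GRCh38.p14), 22 members (21.0%) lay on chromosome 19, against 6.01% of all genes that could be placed, followed by 11 members on chromosome 7, 10 on chromosome 1 and 9 on chromosome 16. Runs of members with no other protein-coding gene between them were few: a run of 3 on chromosome 7 (ZNF398, ZNF282 and ZNF212) and 7 pairs.

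Most ZNF genes changed little in RNA with nutlin-3a. The median log2 change of the members was -0.03, -0.02, 0.04 and 0.10 at 2, 4, 6 and 19 h, beside -0.04, -0.08, 0.00 and -0.05 for all genes. The changes below were taken after values under 1 FPKM were set to 1, and a gene is counted as higher or lower if it moved by at least 2-fold. At 2 h no member was 2-fold higher or lower in RNA, where 0.783% of all genes were higher and 0.0126% lower. At 4 h 3 members were higher (all genes, 1.28%) and 1 was lower (0.531%). At 6 h 6 members were higher, 5.71% of them against 1.64% of all genes, and 1 was lower, 0.952% against 4.83%. At 19 h 5 members, or 4.76%, were higher against 2.26% of all genes, and 1 was lower against 6.38%. In all, 6 members were 2-fold higher at some time (ZNF79, ZNF219, ZNF337, ZNF385A, ZNF561 and ZNF654), and ZNF367 alone was 2-fold lower. The share of all genes pooled over the times in this way is not given. Among the 97 members at 5 FPKM or more in the control, 1 was higher at 4 h (1.03%, against 0.866% of all such genes), 3 at 6 h and 3 at 19 h (3.09% each time, against 1.12% and 1.59%), since ZNF79, ZNF385A and ZNF654 were among the 8 that passed through their treated libraries.

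**Figure D1:**
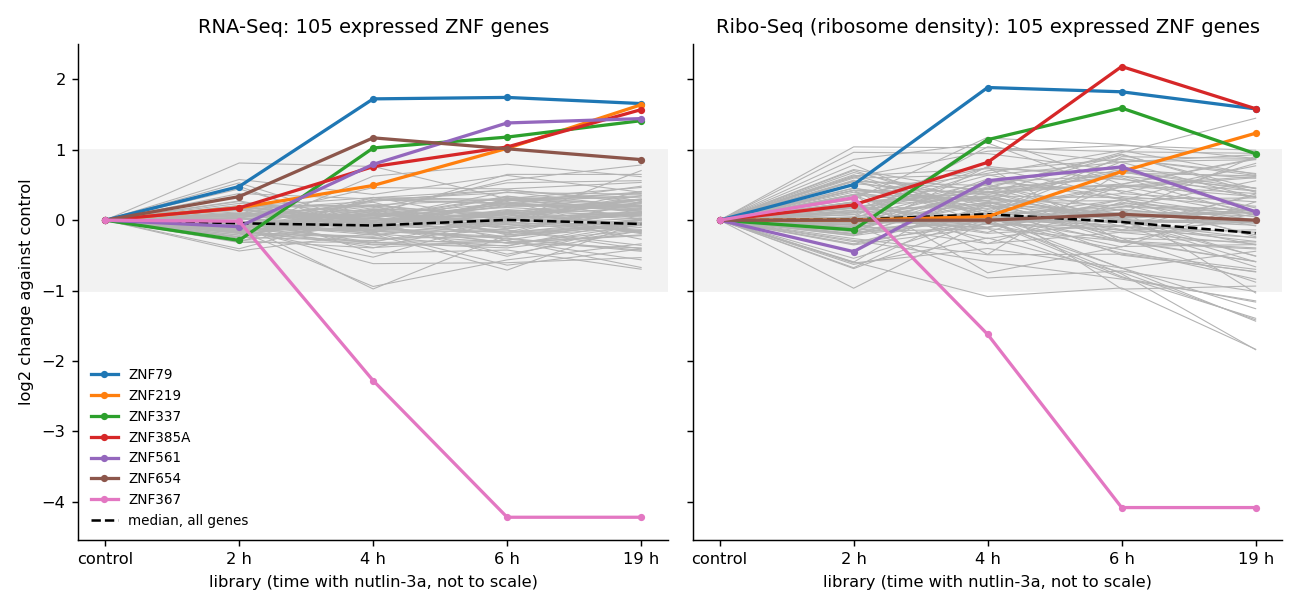
Log2 change against the control library (vertical axis) in each library (horizontal axis, times not to scale) for RNA on the left and ribosome density on the right. Each grey line is 1 of the 105 expressed ZNF genes, coloured lines are the 7 genes that passed 2-fold in RNA, the dashed line is the median of all genes and the grey band marks changes under 2-fold. ZNF79 reached 1.72 in RNA by 4 h and ZNF367 fell by 4.22 by 6 h, where the floor of 1 FPKM holds it.

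ZNF79 (ENSG00000196152, chromosome 9), a C2H2 gene, had the largest RNA rise. The study names it among the known p53 targets within its cluster of genes induced by nutlin-3a. That cluster came from the study's own nutlin-3a data, so the listing is not independent of this rise. Its RNA was 2.32 FPKM in the control and 3.23, 7.66, 7.77 and 7.32 FPKM at 2, 4, 6 and 19 h. Its ribosome density was 2.66, 3.77, 9.82, 9.41 and 7.95 FPKM in the same order. The 3 late libraries of each assay were thus close to each other and well above the control and 2 h. At 4 h the RNA change was 1.72 (counting SE, 0.15), a 3.30-fold rise, and the density change was 1.88 (SE, 0.20). The translational efficiency (TE, the log2 ratio of Ribo-Seq to RNA-Seq FPKM, with values under 1 FPKM set to 1 here too) was 0.20 in the control and stayed between 0.12 and 0.36 in the treated libraries.

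ZNF385A (ENSG00000161642, chromosome 12), also called HZF, encodes a zinc finger protein known to be induced by p53 and to bind it. Its RNA rose with each later library, with 3.40, 3.84, 5.76, 6.99 and 10.1 FPKM from the control to 19 h, and at 19 h the log2 change was 1.57 (counting SE, 0.12). Its ribosome density was 1.28, 1.48, 2.26, 5.79 and 3.82 FPKM, highest at 6 h. The density change of 2.18 at 6 h was the largest of any member, on 35 reads in the control and 136 at 6 h, and the TE change at that time was 1.14 with an SE of 0.30. At 19 h the TE change was 0.01, so the RNA and the density had moved by the same factor.

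ZNF337 (ENSG00000130684, chromosome 20), a little-studied C2H2 gene, had 5.39 and 4.42 FPKM of RNA in the control and at 2 h and then 10.97, 12.2 and 14.3 FPKM at 4, 6 and 19 h. Its density was 1.41, 1.28, 3.12, 4.26 and 2.72 FPKM, with changes of 1.14, 1.59 and 0.94 at the 3 late times. RNA kept climbing to 19 h while density was highest at 6 h. ZNF79, ZNF337 and ZNF367 were the only members past 2-fold in RNA in the same direction at 4, 6 and 19 h.

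ZNF219 (ENSG00000165804, chromosome 14), a transcriptional regulator and partner of SOX9, rose late. Its RNA was 7.07, 7.99, 9.96, 14.3 and 22.0 FPKM from the control to 19 h, a 3.12-fold rise. Its ribosome density was far lower, at 0.526, 0.522, 1.04, 1.62 and 2.35 FPKM, on 19 to 56 reads. Its density change at 19 h was 1.24, against a control value raised to 1 FPKM. The TE of ZNF219 lay between -3.26 and -2.82 in every library, with the densities in the control and at 2 h raised to the floor.

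ZNF561 (ENSG00000171469, chromosome 19), a C2H2 gene with few known functions, rose in RNA while its ribosome density at 19 h was near the control. Its RNA was 5.62, 5.27, 9.74, 14.6 and 15.3 FPKM, a 2.72-fold rise at 19 h. Its density was 2.23, 1.64, 3.29, 3.77 and 2.42 FPKM, so the control and 19 h libraries were close to each other on 123 and 88 reads. The TE of ZNF561 was -1.34 in the control and -2.66 at 19 h, a change of -1.32 (counting SE, 0.21). ZNF654, the sixth gene with a 2-fold RNA rise, had 3.50 FPKM in the control and 7.86, 7.06 and 6.35 FPKM at 4, 6 and 19 h. Its ribosome density stayed between 0.65 and 1.06 FPKM on 25 to 67 reads, so its TE change of -1.17 at 4 h, the sole 2-fold TE fall at that time, depends on the floor and was -0.65 without one.

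**Figure D2:**
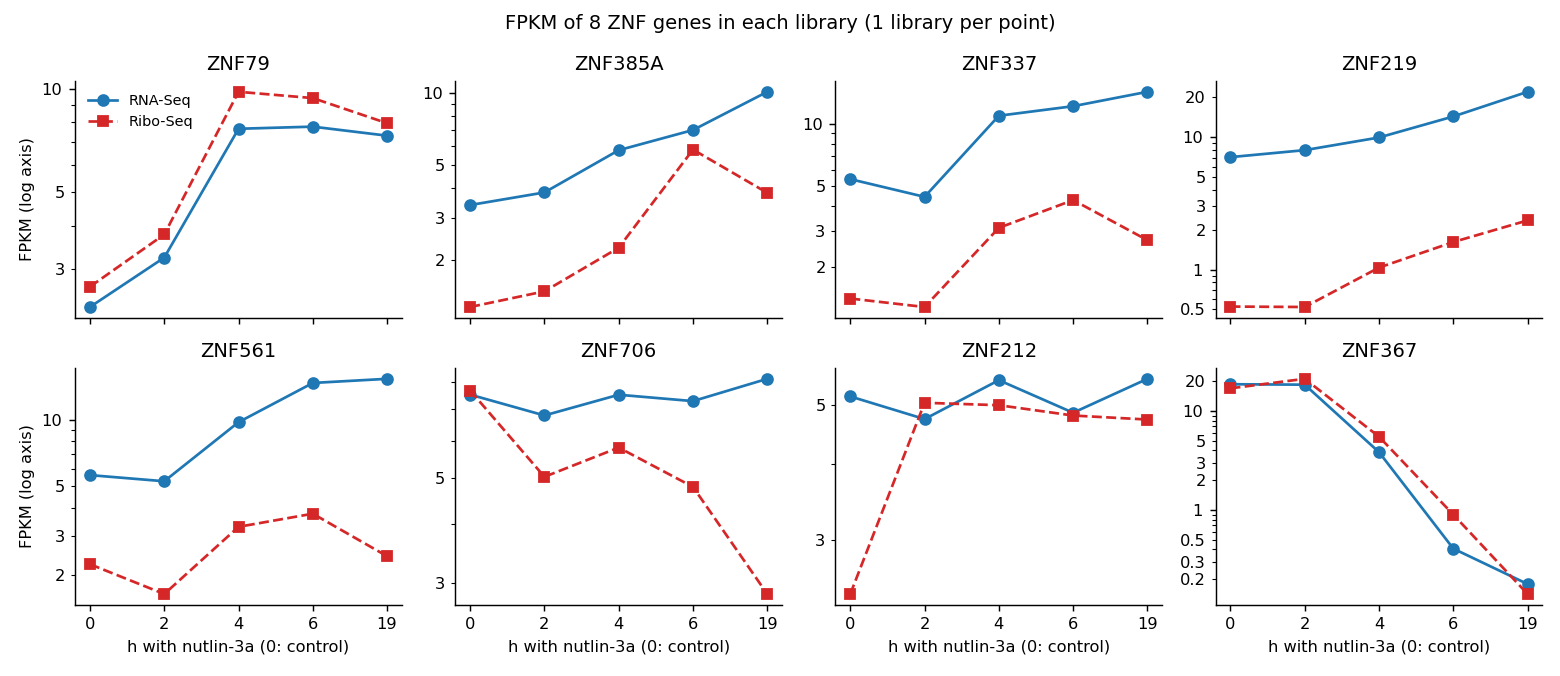
FPKM (log axis, scaled to each panel) of 8 ZNF genes in the 5 RNA-Seq libraries (circles, solid) and the 5 Ribo-Seq libraries (squares, dashed) against hours with nutlin-3a, 1 library per point. For ZNF79 and ZNF367 both lines move together, whereas for ZNF561 and ZNF706 the ribosome density falls away from the RNA at 19 h.

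ZNF367 (ENSG00000165244, chromosome 9), a transcription factor also called ZFF29, was the only member 2-fold lower in RNA at any time. Its RNA was 18.6 and 18.4 FPKM in the control and at 2 h, and then 3.84, 0.408 and 0.179 FPKM at 4, 6 and 19 h, the last on 17 reads. Its ribosome density was 16.9, 21.1, 5.50, 0.899 and 0.142 FPKM, on 726 reads in the control and 4 at 19 h. The first 2 libraries were alike in RNA, while density was higher at 2 h than in the control. In both assays the 3 late libraries were each lower than the one before. With the floor the RNA change was -2.28 at 4 h and -4.22 at 6 and 19 h. Without it the RNA change at 19 h was -6.70 and the density change -6.90.

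The promoter of ZNF367 is shown because no other member fell in this way. Promoter windows (250 bases before to 50 after a gene's start, from RefSeq, GRCh38.p14) were at hand for 87 of the 105 members and for 27305 genes in all. They were searched on both strands for the E2F-type words TTTGGCGC, TTTCGCGC and TTTCCCGC, which were chosen after the fall of ZNF367 had been seen. The last 100 bases before the ZNF367 start, chr9:96418371-96418470 on the minus strand, read 5′ to 3′ with matches in capitals, were as follows.
ZNF367: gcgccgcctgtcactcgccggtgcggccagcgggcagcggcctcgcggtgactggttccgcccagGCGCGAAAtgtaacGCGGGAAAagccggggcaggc
The 2 matches, both as reverse complements of a searched word, do not overlap and begin 35 and 21 bases before the start. At least 1 match was found in 5 of the 87 member windows (5.75%) and in 2.79% of all windows, and 2 or more in the ZNF367 window alone among members and in 0.121% of all windows. All windows are those of the 27305 genes whatever their expression, not of the 7916 expressed genes used elsewhere. The other members with a match were ZNF131, ZNF444, ZNF644 and ZNF687, none of which moved 2-fold in RNA. The p53 half-site, searched as its degenerate pattern, was found in 5 of the 87 member windows (5.75%) and in 6.54% of all windows. Its 5 members were ZNF131, ZNF263, ZNF428, ZNF740 and ZNF770, and no match lay in the windows of ZNF79, ZNF219, ZNF337 or ZNF561. A match of letters is a description and says nothing on binding. Sequence outside the windows was not searched, so the lack of a match there says nothing on sites elsewhere.

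RNA changes at 2 h were small. ZNF697 had the largest RNA change at 2 h, with 5.84 FPKM in the control and 10.3, 9.91, 7.21 and 6.69 FPKM afterwards, a change of 0.81 at 2 h. It was followed by ZNF281 (ZBP-99, a GC-box-binding factor), whose RNA was 10.6, 15.8, 13.6, 16.4 and 13.9 FPKM and whose density was 6.43, 12.5, 12.4, 10.5 and 8.82 FPKM. The density changes of ZNF281 at 2 h (0.96) and 4 h (0.95) were just under 2-fold. ZNF697 was named after its values were seen.

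Ribosome density moved more widely than RNA, as it did among all genes. The members' median density change was 0.04, 0.21, 0.13 and 0.07 at 2, 4, 6 and 19 h, against 0.01, 0.09, -0.03 and -0.18 for all genes. At 2 h 1 member was 2-fold higher (all genes, 1.93%) and none lower (0.202%). At 4 h 7 were higher (6.67% against 2.31%) and 2 lower (1.90% against 0.543%). At 6 h 5 were higher (4.76% against 4.79%) and 1 lower (0.952% against 7.57%). At 19 h 4 were higher (3.81% against 5.55%) and 11 lower (10.5% against 14.3%). Over the 4 times 11 members were higher at least once and 11 lower at least once. The like share of all genes is not given, so these pooled counts have no reference value.

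The 11 members with a density rise included ZNF79, ZNF337, ZNF385A and ZNF219, whose RNA rose as well. The other 7 had no 2-fold RNA rise. ZNF205 had 3.75 and 3.48 FPKM of density in the control and at 2 h and 8.42, 7.90 and 6.89 FPKM at 4, 6 and 19 h, while its RNA stayed between 4.68 and 7.09 FPKM. ZNF195 had its highest density, 4.47 FPKM, at 4 h, against 1.97 FPKM in the control on 55 reads. ZNF524 rose at each later time, with 4.14, 4.71, 5.67, 8.06 and 11.3 FPKM, a change of 1.45 at 19 h beside an RNA change of 0.78. ZNF697 passed 2-fold at 4 h with a change of 1.10, ZNF880 with 1.04, and ZNF746 (PARIS, a KRAB repressor of PGC-1alpha) at 6 h with 1.06.

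ZNF212 was the gene whose ribosome density was 2-fold higher already at 2 h. Its density was 2.45 FPKM in the control and 5.04, 5.00, 4.81 and 4.73 FPKM at 2, 4, 6 and 19 h, with no trend among the treated libraries. Its RNA was 5.16, 4.74, 5.49, 4.86 and 5.52 FPKM. The TE change was 1.16 at 2 h (counting SE, 0.22), and it rests on the control library and its 81 reads: with the 2 h library as the baseline the TE change at 6 h was -0.10. Its chromosome 7 neighbours ZNF282 and ZNF398, looked up for their place, had density changes of 0.63 and 0.72 at 2 h, also with little change in RNA (0.08 and 0.12). These changes share that control library, and the other runs of neighbouring members were not set beside them.

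The 11 members 2-fold lower in density at 19 h were ZNF367, with its loss of RNA, and ZNF3, ZNF22, ZNF131, ZNF146, ZNF207, ZNF238 (now ZBTB18), ZNF639, ZNF644, ZNF706 and ZNF740. In ZNF22 the density was 9.96, 7.87, 10.0, 5.88 and 2.78 FPKM from the control to 19 h, a change of -1.84, beside an RNA change of -0.67. ZNF639 (ZASC1) had 4.43, 2.94, 2.09, 2.27 and 1.24 FPKM and was 2-fold lower at 4 h as well. ZNF207 (BuGZ), which binds the checkpoint protein BUB3 at kinetochores, had 11.8 FPKM in the control and 6.72 and 5.29 FPKM at 6 and 19 h, while its RNA went from 18.4 to 13.5 FPKM.

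Across members the RNA and density changes were related, with Pearson's r of 0.35, 0.64, 0.67 and 0.71 and Spearman's rho of 0.25, 0.44, 0.32 and 0.53 at 2, 4, 6 and 19 h over 105 genes. Without ZNF367 Pearson's r was 0.35, 0.56, 0.45 and 0.58. Among all 7916 genes r was 0.51, 0.69, 0.71 and 0.82. The genes share their libraries and are not replicates, and the members' ribosome density is counted on few reads.

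**Figure D3:**
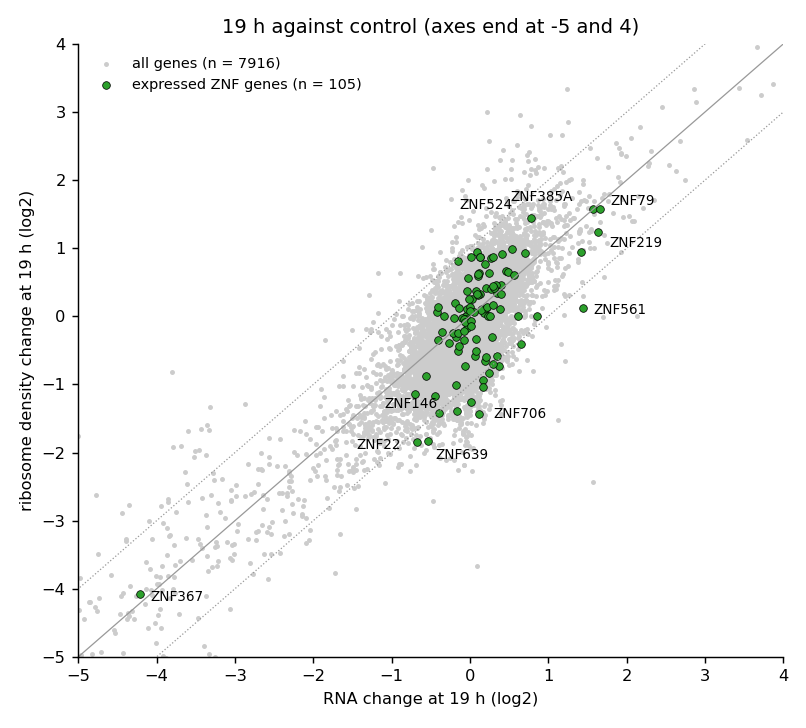
RNA change (horizontal) and ribosome density change (vertical) at 19 h against control, both log2, for all 7916 genes (grey) and the 105 expressed ZNF genes (green). The solid line marks equal change and the dotted lines a TE change of 2-fold. 38 of all genes lie outside the axes, and 12 ZNF genes lie below the lower dotted line and none above the upper one.

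TE changes past 2-fold were mostly falls at 19 h. The median TE change was 0.12, 0.22, 0.14 and -0.00 at 2, 4, 6 and 19 h, beside 0.04, 0.16, -0.01 and -0.09 for all genes. At 2 h 1 member was 2-fold higher (all genes, 1.09%) and none lower (0.126%). At 4 h none was higher (0.922%) and 1 was lower (0.164%). At 6 h 4 were higher (3.81% against 3.21%) and 1 lower (0.952% against 2.68%). At 19 h none was higher (1.96%) and 12 were lower, 11.4% of the members against 4.33% of all genes. The 19 h count depends on how low values are treated: with a pseudocount of 1 FPKM in place of the floor 3 members were past 2-fold, among them ZNF706 (-1.27) and ZNF561 (-1.21). The share of all genes with that pseudocount is not given, so this count cannot be set against the 4.33%.

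The 12 members with a TE at least 2-fold lower at 19 h were ZNF3, ZNF22, ZNF32, ZNF131, ZNF146, ZNF277, ZNF451, ZNF561, ZNF639, ZNF706, ZNF740 and ZNF770. In all 12 the change was larger than 3 counting SEs, on 29 to 102 Ribo-Seq reads at 19 h. Their RNA changes at 19 h ran from -0.67 to 1.44 with a median of 0.14, close to the median of 0.10 of the other 93 members, while their median density change was -1.15 against 0.11. As the 12 were chosen by TE at 19 h, a density low relative to RNA is built into this contrast. Of the 12, 7 were also 2-fold lower in density. Their TE was below the control in 11 of 12 at 2 h, in 7 at 4 h and in 11 at 6 h, with medians of -0.41, -0.13 and -0.63, against 0.16, 0.27 and 0.26 in the other members. These changes share the control library with the one that chose the 12, and with the 2 h library as the baseline 5 members were past 2-fold at 19 h. Their median recovered transcript length was 3245 nt, against 3242 nt in the other members. Over all members the median TE change at 19 h was 0.15, 0.04 and -0.12 in the shortest, middle and longest class of transcripts (the 3 equal classes of all genes by length used below), and the part of length was not tested.

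ZNF706, a small zinc finger protein known to hold back Klf4 in embryonic stem cells, had the largest TE fall. Its RNA was 7.52, 6.79, 7.52, 7.29 and 8.12 FPKM from the control to 19 h, and its density was 7.67, 5.03, 5.81, 4.79 and 2.84 FPKM, lowest at 19 h on 77 reads. The TE change was -1.55 (counting SE, 0.20). ZNF146 (OZF), the second most abundant member in RNA, had a level RNA of 22.1 to 25.4 FPKM and densities of 8.98, 4.60, 8.90, 5.15 and 3.42 FPKM. Its TE was thus as high at 4 h as in the control and lower at 2, 6 and 19 h (-1.47, -2.28, -1.39, -2.30 and -2.69 in order). ZNF32 had a like course, with densities of 8.64, 5.41, 10.2, 4.38 and 4.52 FPKM and the sole 2-fold TE fall at 6 h, of -1.26.

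In ZNF277 and in ZNF451, a SUMO ligase with zinc fingers, RNA was higher and density lower at 19 h. The RNA of ZNF277 was 5.24, 5.44, 5.56, 8.22 and 8.22 FPKM while its density was 5.75, 5.61, 6.17, 4.62 and 4.33 FPKM. For ZNF451 the RNA went from 7.15 to 9.23 FPKM and the density from 3.53 to 2.13 FPKM at 19 h. The RNA change was thus the larger in ZNF277 (0.65 against -0.41 in density) and the density change the larger in ZNF451 (-0.73 against 0.37 in RNA). ZNF131, a zinc finger protein with a BTB domain, lost density from 5.37 to 2.01 FPKM as its RNA went from 9.55 to 7.27 FPKM. The 4 members 2-fold higher in TE at 6 h were ZNF385A, ZNF212, ZNF579 and ZNF621, and at 19 h none of these 4 was past 2-fold.

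The median TE of the members was low in every library. Per the study's methods translation levels count coding-sequence reads alone, whereas the Ribo-Seq column headers say total, and which of these holds for the values used here was not settled. If coding reads were divided by the length of the whole transcript, a TE level also carries the coding share of that transcript, which was not measured. The median TE was -1.03, -0.998, -0.86, -0.99 and -1.30 in the control and at 2, 4, 6 and 19 h, against -0.44, -0.37, -0.27, -0.43 and -0.52 for all genes, so that the typical member had 0.663 times the TE of the typical gene in the control and 0.582 times at 19 h. In the control 77 of 105 members (73.3%) were below the median of all genes, and 24 (22.9%) were among the lowest 10% of all genes, where 32 members (30.5%) lay at 19 h. Only 13 members had more ribosome density than RNA, in FPKM, in the control (12.4% against 31.3% of all genes). The order of the members was kept, with Spearman's rho of 0.91, 0.93, 0.84 and 0.83 between the control and the TE at 2, 4, 6 and 19 h over 105 genes.

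**Figure D4:**
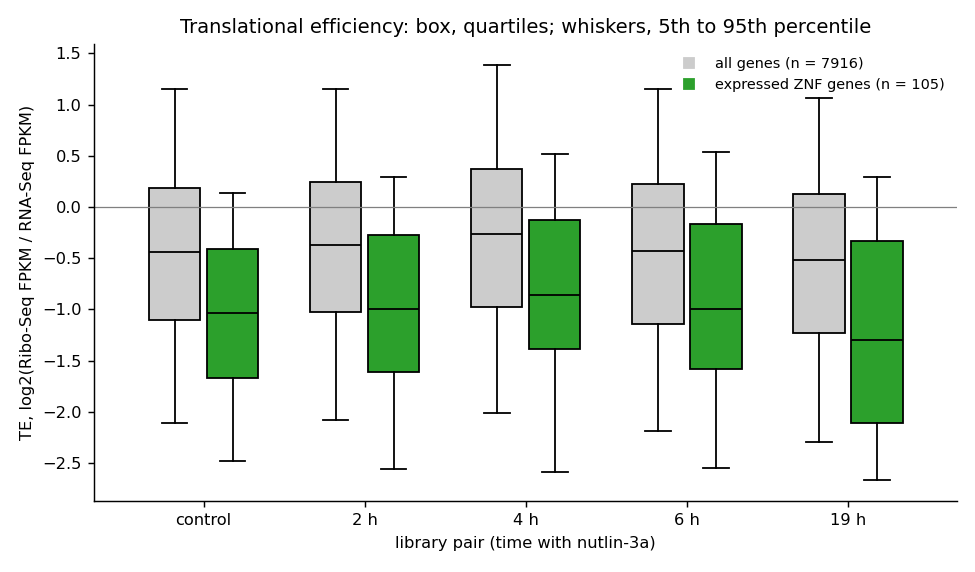
TE (log2 of Ribo-Seq over RNA-Seq FPKM, vertical axis) in the control and at each time with nutlin-3a for all genes (grey, n = 7916) and the expressed ZNF genes (green, n = 105). Boxes show the quartiles and the median, whiskers the 5th to the 95th percentile, and in each pair of libraries the ZNF median lies 0.56 to 0.78 below that of all genes.

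TE fell with transcript length. The recovered transcript length had a median of 3242 nt in the members and 2837 nt in all genes with a length, and TE in the control fell with length in both (Spearman's rho of -0.61 over 105 members and -0.76 over 7895 genes, which share the libraries and the way reads were assigned). A single length per transcript gave whole reads in both tables, so the length itself cancels in the ratio, but a coding share that varies with length would not. In each of 3 equal classes of all genes by length the members were lower: in the control their median was -0.10 against 0.37 among the shortest, -0.72 against -0.41 in the middle and -1.60 against -1.20 among the longest, with 18, 47 and 40 members. With the trend over log2 length removed from every gene the members' median was 0.37 below that of all genes in the control and 0.51 below at 19 h. Genes within the members' range of mean RNA had a median TE of -0.59 in the control (5312 genes), against -1.03 for the members. Those also within the members' middle range of length had -0.67 (2219 genes), against -1.02 for the 53 members in that range. These sets share a range with the members but were not matched in level. Their control medians of RNA were 12.1 and 11.9 FPKM, against 7.81 FPKM for the members. The part of length and RNA level in the difference was not tested.

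**Figure D5:**
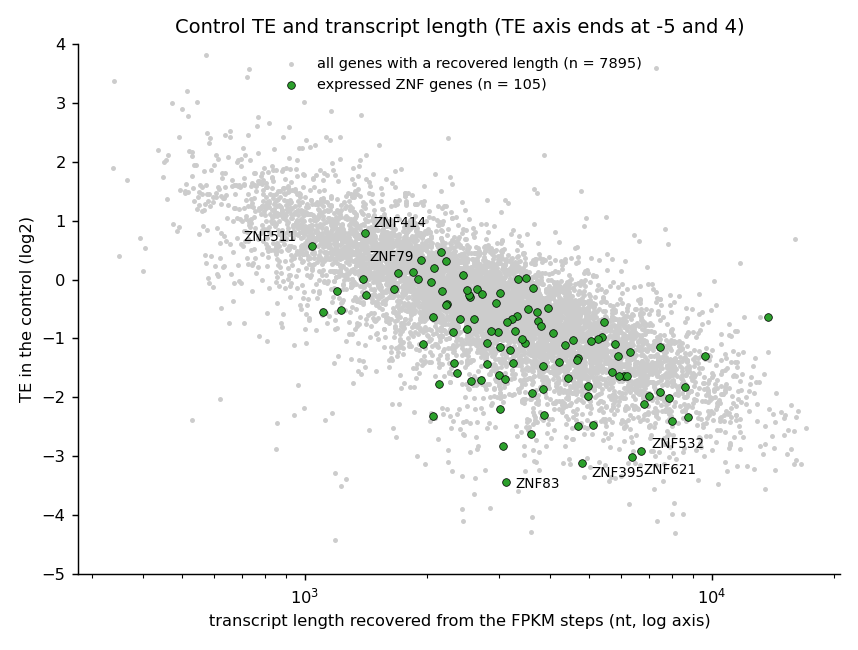
TE in the control (vertical axis, log2) against the transcript length recovered from the FPKM steps (horizontal axis, nt, log) for 7895 genes (grey) and the 105 expressed ZNF genes (green). TE falls with length in both, ZNF83 and ZNF395 (densities raised to the floor of 1 FPKM) lie under most genes of their length, the rightmost ZNF gene is ZNF207, whose recovered length of 13767 nt could not be checked, and 9 of all genes lie outside the TE axis.

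Among the 95 members with at least 50 Ribo-Seq reads in the control, the highest TE was that of ZNF414 (0.80), followed by ZNF511 (0.56), ZNF579 (0.47), ZNF787 and ZNF880 (0.32 each), all but ZNF511 on chromosome 19. ZNF414 had 5.41 to 8.15 FPKM of RNA and 12.5 to 15.3 FPKM of ribosome density over the 5 libraries. The lowest were ZNF621 (-3.02), ZNF532 (-2.91), ZNF804A (-2.48), ZNF664 (-2.47) and ZNF318 (-2.40). ZNF664 had 19.3 to 22.6 FPKM of RNA, the fourth highest mean, but only 3.27 to 5.56 FPKM of density. Below the read minimum, ZNF395 had 4.50 to 8.64 FPKM of RNA and 0.018 to 0.083 FPKM of density, on 1 to 4 reads per library. ZNF83 had 8.73 to 12.9 FPKM of RNA and 0.083 to 0.477 FPKM of density, on 2 to 17 reads. ZNF395 and ZNF83 were chosen after their values were seen. Reads with more than 1 hit had been discarded and ZNF genes share sequence, and the part of this in their values was not tested.

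The 22 members on chromosome 19 had a median TE of -0.60 in the control and -0.54 at 19 h, and the 83 on other chromosomes had -1.09 and -1.42. The difference from the median of all genes was -0.17 and -0.02 for the members on chromosome 19. It was -0.65 and -0.91 for those on other chromosomes, so the low median TE was mainly theirs. TE also fell with transcript length. Lengths were not compared between these groups, and the part of length in this contrast was not tested. RNA levels on chromosome 19 were like those of the rest, with control medians of 6.73 and 7.99 FPKM. At 19 h the median RNA change was 0.25 on chromosome 19 and 0.08 elsewhere, both smaller than the interquartile spread of either group, and ZNF561 was the only chromosome 19 member with a 2-fold RNA change.

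Some ZNF proteins act on RNA and ribosomes, and 9 of a list of 12 such genes were members. ZNF622, the human counterpart of a yeast factor that matures the large ribosomal subunit, had 21.1, 21.5, 20.4, 26.7 and 22.6 FPKM of RNA and 22.8, 32.7, 29.3, 37.6 and 34.5 FPKM of density. Its density lay above the control in all 4 treated libraries, and its TE changes were 0.49, 0.41, 0.38 and 0.50 with counting SEs of 0.11 to 0.12. ZNF598, the ubiquitin ligase that marks collided ribosomes, lost RNA, from 18.9 and 21.1 FPKM in the control and at 2 h to 12.2 and 14.3 FPKM at 6 and 19 h. Its density stayed between 8.25 and 10.3 FPKM, so its TE change reached 0.69 at 6 h with an SE of 0.13.

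The RNA-binding proteins ZNF638 (NP220) and ZNF326 (of the DBIRD complex, which couples elongation and splicing) kept their RNA within 12.7 to 18.5 and 13.3 to 14.7 FPKM. The density of ZNF326 was 12.4, 11.9, 12.9, 7.71 and 9.13 FPKM. ZNF330, a nucleolar protein, had a TE of 0.01 in the control and lower values in each treated library, down to -0.67 at 19 h. ZNF259 (now ZPR1, which binds translation factor eEF1A) had densities of 15.5, 18.5, 20.4, 14.5 and 12.5 FPKM. Of the 9 genes, 1 was 2-fold higher in RNA at 19 h (ZNF385A, where 2.26% of all genes were), 1 was higher and 1 lower in density (ZNF385A and ZNF207, against 5.55% and 14.3%) and 1 was lower in TE (ZNF277, against 4.33%). The list's median RNA change at 19 h was -0.06, against -0.05 for all genes.

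Of 32 listed chromatin and promoter regulators, 25 were members. At 19 h 1 was 2-fold higher in RNA and in density (ZNF219, against 2.26% and 5.55% of all genes), 2 were lower in density (ZNF131 and ZNF644, against 14.3%) and 2 lower in TE (ZNF131 and ZNF451, against 4.33%). Their median RNA change at 19 h was -0.04, that in density -0.03 and that in TE -0.07, beside -0.05, -0.18 and -0.09 for all genes. ZNF143, an activator bound at many promoters, had 7.03, 7.22, 6.39, 6.38 and 5.30 FPKM of RNA, and its relative ZNF76 had 8.26, 7.53, 5.74, 8.37 and 8.71 FPKM. ZNF148 (ZBP-89) stayed within 7.33 to 9.45 FPKM, ZNF24 within 12.5 to 14.2 FPKM and ZNF217, an oncoprotein of the CoREST complex, within 16.2 to 20.5 FPKM.

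ZNF592, ZNF687 and ZNF532, related proteins that occur in a shared complex, were each within 2-fold of the control in every measure. ZNF532 had 14.7 to 16.6 FPKM of RNA and 2.05 to 2.68 FPKM of density, ZNF592 had 6.48 to 10.2 and 1.89 to 2.54 FPKM, and ZNF687 had 5.99 to 7.89 and 3.31 to 5.74 FPKM. Their control TE thus differed, at -2.91, -2.01 and -0.97. ZNF703, a NET family co-repressor, had 20.9, 29.2, 18.2, 12.8 and 20.5 FPKM of RNA, lowest at 6 h, when its density was 24.0 FPKM against 21.2 FPKM in the control. ZNF521 dipped in RNA at 4 h alone, with 3.82 FPKM against 6.51 to 7.52 FPKM in the other 4 libraries, and its density was lowest there too, at 1.14 FPKM. ZNF644, which works with the histone methyltransferases G9a and GLP, kept an RNA of 7.03 to 9.65 FPKM while its density was 2.70 and 2.58 FPKM in the control and at 2 h and 1.53, 1.64 and 1.34 FPKM later.

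The others on this list included ZNF263 with 6.99 to 9.34 FPKM of RNA, ZNF335 with 7.23 to 9.50, ZNF512B with 11.6 to 15.2, ZNF609 with 7.97 to 10.6, ZNF668 with 6.41 to 6.90, ZNF768 with 12.9 to 15.1, ZNF318 with 6.69 to 8.53 and ZNF827 with 5.35 to 7.17 FPKM. None of these 8 passed 2-fold in any measure.

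Of the partners through which KRAB zinc fingers silence chromatin, none was 2-fold higher in RNA or density at any time. Of 20 listed genes, 19 were measured. At 19 h 3 were 2-fold lower in RNA (all genes, 6.38%) and 5 in density (14.3%), with medians of -0.38 in both against -0.05 and -0.18 for all genes. TRIM28, the central co-repressor, had 154, 152, 139, 100.5 and 98.0 FPKM of RNA from the control to 19 h and 167, 220.0, 195, 177 and 151 FPKM of density. CBX5, which encodes HP1 alpha, had 41.0, 36.8, 27.6, 18.8 and 13.8 FPKM of RNA and 15.5, 11.1, 13.8, 4.61 and 2.78 FPKM of density. SETDB1 stayed within 6.58 to 8.21 FPKM of RNA.

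Other C2H2 families taken by symbol (ZBTB, ZKSCAN, ZSCAN and ZFP genes at 5 FPKM or more, 23 genes) had a median TE of -1.38 in the control and -1.73 at 19 h, lower than that of the members. None of the 23 was 2-fold higher or lower in RNA at any time. Of them, 1 (4.35%) was 2-fold lower in TE at 19 h, against 4.33% of all genes. The 303 ZNF genes under 5 FPKM had a control median of 1.92 FPKM of RNA and 35 Ribo-Seq reads. On the floored scale none of them was 2-fold higher in RNA at any time. At 4, 6 and 19 h 0.330%, 1.32% and 1.98% were 2-fold lower, against 0.531%, 4.83% and 6.38% of all genes. The limit of 5 FPKM was set on a mean that includes treated libraries. A low gene with a large enough rise thus left this set for the members, so the lack of rises is partly built in. Genes below 1 FPKM cannot fall on the floored scale. The median TE of these 303 genes in the control was -0.52, against -0.44 for all genes. A gene below 1 FPKM in both assays has a TE of 0 on that scale.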

How the data were processed

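RNA-Seq and Ribo-Seq libraries (5 each, 1 per condition and assay) were grouped by their labels. The authors deposited 2 tables of FPKM with 3 decimals. Per the study's methods they aligned reads with Bowtie to single-isoform protein-coding transcripts (Ensembl release 65; the labels name hg19), kept unique hits and treated Ribo-Seq cells with cycloheximide. One table is named for Ribo-Seq alone. The other is named for both assays and was read as RNA-Seq, as it has a single column per time. The number of per-sample columns left unused was 0.

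Log2 ratios to the control library were taken after values below 1 FPKM were set to 1. With 1 library per group there was no test. Totals, lengths and whole reads were worked out from the steps between FPKM values, for 11231 of 11258 transcripts and all 105 members, and were checked on simulated data, where not every length came back right. They were used for counting errors, and the lengths also for the comparisons of TE with length. PCR copies could not be told apart, so the errors cover counting only.

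Named genes were ZNF79, the 3 largest rises and falls past 2-fold and 3 counting SEs for each measure and time, the 5 highest in RNA, the 5 highest and 5 lowest in control TE, 3 genes on each side of the 5 FPKM limit, the role lists, and genes past 2-fold in RNA at 4, 6 and 19 h. Others are marked. Members and lists were chosen with earlier results of these data known. A split by KRAB domain was planned and not run, as proteins were not used here. Python 3.11.15, numpy 2.4.6, pandas 2.3.3, scipy 1.17.1 and matplotlib 3.10.9 were used.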

Additional observations from a re-analysis of the deposited data

How the results depend on the processing

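No paired analysis was possible because each condition had 1 library per assay. The counts past 2-fold below are of members alone, without the share of all genes under the same setting. They are therefore not comparisons with all genes. With a pseudocount of 1 FPKM in place of the floor the members past 2-fold numbered 2 and 4 (not 4 and 7) in RNA at 4 and 6 h and 6, as with the floor, at 19 h, 0 and 2 (not 1 and 9) in density at 2 and 4 h, and 0, 0, 1 and 3 (not 1, 1, 5 and 12) in TE at 2, 4, 6 and 19 h. With no floor the RNA counts stayed at 4, 7 and 6 at 4, 6 and 19 h, and there were 2 in density at 2 h and 2, 3 and 8 in TE at 2, 4 and 6 h. With the 2 h library as baseline they were 3 and 5 in TE at 6 and 19 h, and the TE change of ZNF212 at 6 h turned to -0.10. With the length trend removed there were 2 in density at 2 h.

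Only 31 members had a mean of at least 10 FPKM, and of these 0, 2 and 2 were past 2-fold in RNA at 4, 6 and 19 h, 0, 0, 0 and 4 in density and 0, 0, 1 and 4 in TE at 2, 4, 6 and 19 h. With all 408 ZNF genes they were 11 and 12 in RNA at 6 and 19 h (not 7 and 6), 2, 19 and 27 in density at 2, 6 and 19 h (not 1, 6 and 15) and 2, 7 and 19 in TE at 2, 4 and 6 h, and the medians were 0.00 in RNA at 19 h, 0.00 in density at 4 h and 0.043 in TE at 4 h. A sliding limit after the study's methods (a multiple of the local SD, taken here over the 500 genes nearest in level) gave 6, 9, 3 and 3 in RNA at 2, 4, 6 and 19 h, 8 and 3 in density at 2 and 19 h, and 7 and 17 in TE at 2 and 4 h. Centring on all genes moved the median density change at 19 h from 0.07 to 0.25.

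The members' median TE stayed below that of all genes under every alternative tried. With the length trend removed (chosen after seeing the data) the difference was -0.37, -0.41, -0.26, -0.37 and -0.51 in the control and at 2, 4, 6 and 19 h. Over genes at 1 FPKM or more in every Ribo-Seq library (also chosen later) it was -0.47 at 4 h and -0.58 at 19 h. The causes of these shifts were not tested. At 19 h the median member had 99 Ribo-Seq reads, which limits the density and TE changes.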
